A study of Mus musculus with 10 samples.

Results

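Lipid absorption and apolipoprotein genes form a set of 10 genes that the enterocyte, the absorptive cell of the small intestine, uses to take up dietary fat and send it on in lipoproteins. The members are Fabp1, Fabp2, Rbp2, Dgat1, Mttp, Apob, Apoa1, Apoa4, Apoc3 and Prap1, chosen by name with earlier results of these data known. They are 10 of the 18020 genes listed over the series, and all 10 are listed in each of the 10 libraries. The data are CEL-seq2 libraries, in which the poly(A) end of each RNA is primed and tagged with a random molecular barcode before amplification. All libraries come from small intestinal crypts of mice of strain C57Bl/6, and the labels give no treatment, age or genotype. In 7 libraries the wells of a 384-well plate hold sorted single cells: 5 carry the code GK5a and 2 the code GK5b. In 3 libraries, called picked here, the wells hold doublets or triplets of cells taken after a mild dissociation, so a picked well can mix cell types. Whether any library comes from its own animal is not stated, so every p-value reflects the spread among these libraries alone, and that spread may be technical.

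Crypts hold Lgr5-marked stem cells and dividing progenitors, whose absorptive daughters mature as they leave for the villus. In a mature enterocyte, cytosolic binding proteins carry fatty acids and retinol to the endoplasmic reticulum, where acyltransferases rebuild triglyceride. Microsomal triglyceride transfer protein then loads this fat onto apolipoprotein B to make chylomicrons, which also carry smaller apolipoproteins.

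The members lie on 6 chromosomes in the GRCm38 assembly with GENCODE annotation. Apoa1 (chr9:46228580-46230466), Apoc3 (chr9:46232933-46235636) and Apoa4 (chr9:46240696-46243459) sit next to each other within 14880 bases, with Apoc3 on the minus strand. Rbp2 is on the same chromosome at chr9:98486115-98509781. Fabp2 (chr3:122895072-122899506) and Mttp (chr3:138089854-138144968, minus strand) share chromosome 3. Fabp1 is at chr6:71199827-71205023, Prap1 at chr7:140093395-140097200, Apob at chr12:7977648-8016835 and Dgat1 at chr15:76502015-76511953 on the minus strand.

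The sequences before the start sites are shown because the members move together below, and HNF4 proteins, nuclear receptors known to regulate many lipid genes of enterocytes, bind sites of the kind CAAAGNNCA. RefSeq promoter entries (GRCm38.p6) matched 8 of the 10 members. The 250 bases before the start were searched on both strands for CAAAGNNCA, and capitals mark the matches. Only bases outside annotated exons are printed, each on the plus strand and 5′ to 3′.
Fabp2, chr3:122894822-122895071: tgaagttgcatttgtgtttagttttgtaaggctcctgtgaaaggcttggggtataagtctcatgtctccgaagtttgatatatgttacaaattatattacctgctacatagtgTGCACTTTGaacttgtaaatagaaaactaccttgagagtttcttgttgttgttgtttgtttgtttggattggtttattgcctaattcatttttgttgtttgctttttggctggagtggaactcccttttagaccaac
Rbp2, chr9:98490287-98490536: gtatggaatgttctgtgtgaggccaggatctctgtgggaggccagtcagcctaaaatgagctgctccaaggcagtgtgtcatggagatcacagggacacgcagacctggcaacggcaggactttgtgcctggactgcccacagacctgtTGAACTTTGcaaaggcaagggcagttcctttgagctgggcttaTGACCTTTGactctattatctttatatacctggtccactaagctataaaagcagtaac
Apob, chr12:7977427-7977647: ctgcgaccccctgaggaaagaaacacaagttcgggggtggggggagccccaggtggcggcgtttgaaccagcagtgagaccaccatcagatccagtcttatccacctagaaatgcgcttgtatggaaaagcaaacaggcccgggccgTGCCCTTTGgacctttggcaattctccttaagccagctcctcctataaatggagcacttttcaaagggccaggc
Prap1, chr7:140093146-140093394: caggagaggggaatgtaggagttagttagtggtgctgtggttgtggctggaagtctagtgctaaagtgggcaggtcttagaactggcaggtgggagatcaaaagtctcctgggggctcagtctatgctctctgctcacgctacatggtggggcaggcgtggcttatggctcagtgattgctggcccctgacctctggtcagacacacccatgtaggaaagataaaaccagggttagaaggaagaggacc
Apoa1, chr9:46228380-46228579: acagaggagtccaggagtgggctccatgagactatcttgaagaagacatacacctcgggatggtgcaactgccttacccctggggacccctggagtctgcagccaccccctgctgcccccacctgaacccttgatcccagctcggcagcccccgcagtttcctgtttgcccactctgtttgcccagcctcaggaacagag
Fabp2 held 1 CAAAGNNCA match, Apob 1, Rbp2 2 and Apoa4 (not printed) 1, while Prap1, Apoa1, Fabp1 and Mttp held none in this window. Of 32817 promoter windows of the same length, 5.49% held such a match. The Fabp2 match lay from -137 to -129 relative to the start, the Apob match from -103 to -95, and the Rbp2 matches from -101 to -93 and from -58 to -50. The Rbp2 window lies inside the GENCODE span of the gene, upstream of the RefSeq start. Of the other motifs, TATAAA (12.4% of all windows) matched in Fabp1, Rbp2 and Apob. AGATAA (9.99%) matched in Prap1 and Rbp2, and TTTATG (10.8%) in Fabp1. These matches describe letters only and say nothing of binding in these cells.

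Wells with at least 1000 transcripts were used, 1615 sorted and 501 picked, with 189 to 264 wells per sorted library and 122 to 200 per picked library. A library held between 821829 and 4832581 transcripts. Wells with any Lgr5 or Mki67 transcript (stem and dividing cells) were called progenitor, 935 of the sorted wells. Of the rest, 345 were called secretory or tuft from goblet, Paneth, enteroendocrine or tuft markers. Wells in which 23 brush-border genes (digestive enzymes and transporters, no member among them) gave at least 0.5% of transcripts were called mature absorptive, 141 wells, and the remaining 194 intermediate. The classes are ranges of a marker score in the same wells and not separate types: 175 sorted wells had a brush-border share between 0.25% and 1%. Mature and progenitor wells of sorted libraries differ in brush-border genes by the class rules. Lgr5 is also among the stem markers and Mki67 among the proliferation markers, so these shares describe the classes and are no independent check. Brush-border genes gave 2.27% ± 0.593 (SD, n = 6) of transcripts in mature wells and 0.177% in progenitor wells, whereas stem markers gave 0.0105% and 0.186%. The intermediate class holds what met no other rule, and its markers do not place it between the others. Brush-border genes gave 0.167% and stem markers 0.157% of its transcripts, close to progenitor wells. Its proliferation markers gave 0.136%, against 0.247% in progenitor and 0.0191% in mature wells. Its median depth was 4385 transcripts per well, against 10996 in progenitor and 5741 in mature wells. Levels below are CPM, transcripts of a gene as a share of all transcripts in the summed wells of a class in a library, put on a common scale. These levels were not scaled by trimmed means, unlike the values tested by limma, and n counts libraries. Class sums with under 5 wells were left out, which removed the GK5b replicate 1 mature and intermediate wells and the picked replicate 1 mature wells. In such sums, fewer cells that express a gene and less of its RNA per cell cannot be told apart.

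All 10 members were higher in mature absorptive than in progenitor wells of the sorted libraries, in 6 of 6 libraries each. By limma on log2(CPM + 1) with the library as a block, all 10 passed an adjusted p of 0.05. Of all 10184 genes tested, 16.0% were called higher in mature wells. The mature wells were picked by genes of the same wells, though not by a member. The median log2 difference of the members was 4.44, against -0.54 over all genes tested. Together the members gave 3.16% ± 1.30 (SD, n = 6) of all transcripts in mature wells and 0.184% ± 0.0760 (SD, n = 7) in progenitor wells.

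Among the binding proteins, Fabp2, the intestinal fatty acid binding protein, was the most abundant member in mature wells of the 5 GK5a libraries. In GK5b replicate 2 and picked replicate 2, Apoa1 was slightly above it. In mature wells it stood at 26795, 23799.7, 15375, 18679.8 and 21484 CPM in GK5a replicates 1 to 5 and at 1801 CPM in GK5b replicate 2. In progenitor wells it ranged from 350.0 to 1215 CPM with a median of 668. The mature and progenitor levels did not overlap, and the GK5b mature value was far below the GK5a ones. That GK5b value came from 5 wells, 1 of them with a brush-border share over 2%. Each GK5a library had 10 to 21 such wells. The difference between mature and progenitor wells was 4.43 on the log2 scale (SE 0.31, adjusted p = 1.9e-11 by limma). Fabp2 alone made up 59.0% ± 2.04 (SD, n = 5) of the members' transcripts in GK5a mature wells.

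Fabp1, the liver-type fatty acid binding protein that the proximal intestine also makes, ranged from 752 to 2509.6 CPM in mature wells with a median of 1719. Progenitor wells gave 19.3 to 182 CPM with a median of 59.3, again without overlap. The log2 difference was 4.89 (SE 0.40, adjusted p = 2.9e-10 by limma).
Rbp2, the cellular retinol binding protein of the intestine, was the lowest member in mature wells of the GK5a libraries, but was above Apoc3 in GK5b replicate 2 and above Apob in picked replicates 2 and 3. It gave 60.7, 111, 35.1, 54.3 and 94.0 CPM in the mature wells of GK5a replicates 1 to 5 and 184 CPM in GK5b replicate 2. Progenitor wells gave 0 to 12.4 CPM with a median of 3.21, below every mature value. The log2 difference was 4.45 (SE 0.58, adjusted p = 5.9e-07 by limma).

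Dgat1, the acyltransferase that adds the last acyl chain to triglyceride, ranged from 790.2 to 1843 CPM in mature wells with a median of 1269.6. In progenitor wells it ranged from 159 to 452 CPM with a median of 261. The ranges did not overlap, but the progenitor level was well above 0 in every library. The log2 difference was 2.32 (SE 0.27, adjusted p = 1.2e-07 by limma).

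Of the assembly genes, Mttp, the transfer protein that lipidates apolipoprotein B, ranged from 931 to 1579 CPM in mature wells and from 132 to 342 CPM in progenitor wells, with medians of 1344 and 155. Apob, the structural protein of the chylomicron, ranged from 234 to 777 CPM in mature wells and from 21.9 to 86.1 CPM in progenitor wells, with medians of 441 and 42.6. Neither gene's ranges overlapped. The log2 differences were 3.00 for Mttp (SE 0.61, adjusted p = 0.00022 by limma) and 3.22 for Apob (SE 0.62, adjusted p = 0.00013 by limma).

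The smaller apolipoproteins showed the widest gaps. Apoa1, the main protein of high density lipoprotein, was at 8439, 7134, 5227, 5096 and 6385 CPM in the mature wells of GK5a replicates 1 to 5 and at 1839.6 CPM in GK5b replicate 2. Its progenitor levels were 65.5, 394, 36.7, 35.7 and 342 CPM in GK5a replicates 1 to 5 and 9.03 and 4.76 CPM in GK5b. Progenitor wells of GK5a replicates 2 and 5 were the high ones, and all were far below the mature range. The log2 difference of 6.44 (SE 0.51, adjusted p = 2.3e-10 by limma) was the largest of the 10.
Apoa4, a chylomicron protein made in response to fat, ranged from 322 to 2722 CPM in mature wells with a median of 1599. Progenitor wells gave 6.08 to 217 CPM with a median of 15.4, and the log2 difference was 5.55 (SE 0.73, adjusted p = 7.4e-07 by limma). Apoc3, an inhibitor of triglyceride clearance, ranged from 140.3 to 778 CPM in mature wells and from 4.12 to 66.3 CPM in progenitor wells. Its log2 difference was 4.92 (SE 0.54, adjusted p = 3.6e-08 by limma). The lowest mature Apoc3 value, from GK5b replicate 2, still lay above every progenitor value.

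Prap1, a secreted lipid-binding protein that helps Mttp transfer fat, had the narrowest gap. It ranged from 769 to 1139 CPM in mature wells and from 225 to 430.4 CPM in progenitor wells, with medians of 953 and 283. The log2 difference was 1.81 (SE 0.28, adjusted p = 7.9e-06 by limma).

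**Figure D1:**
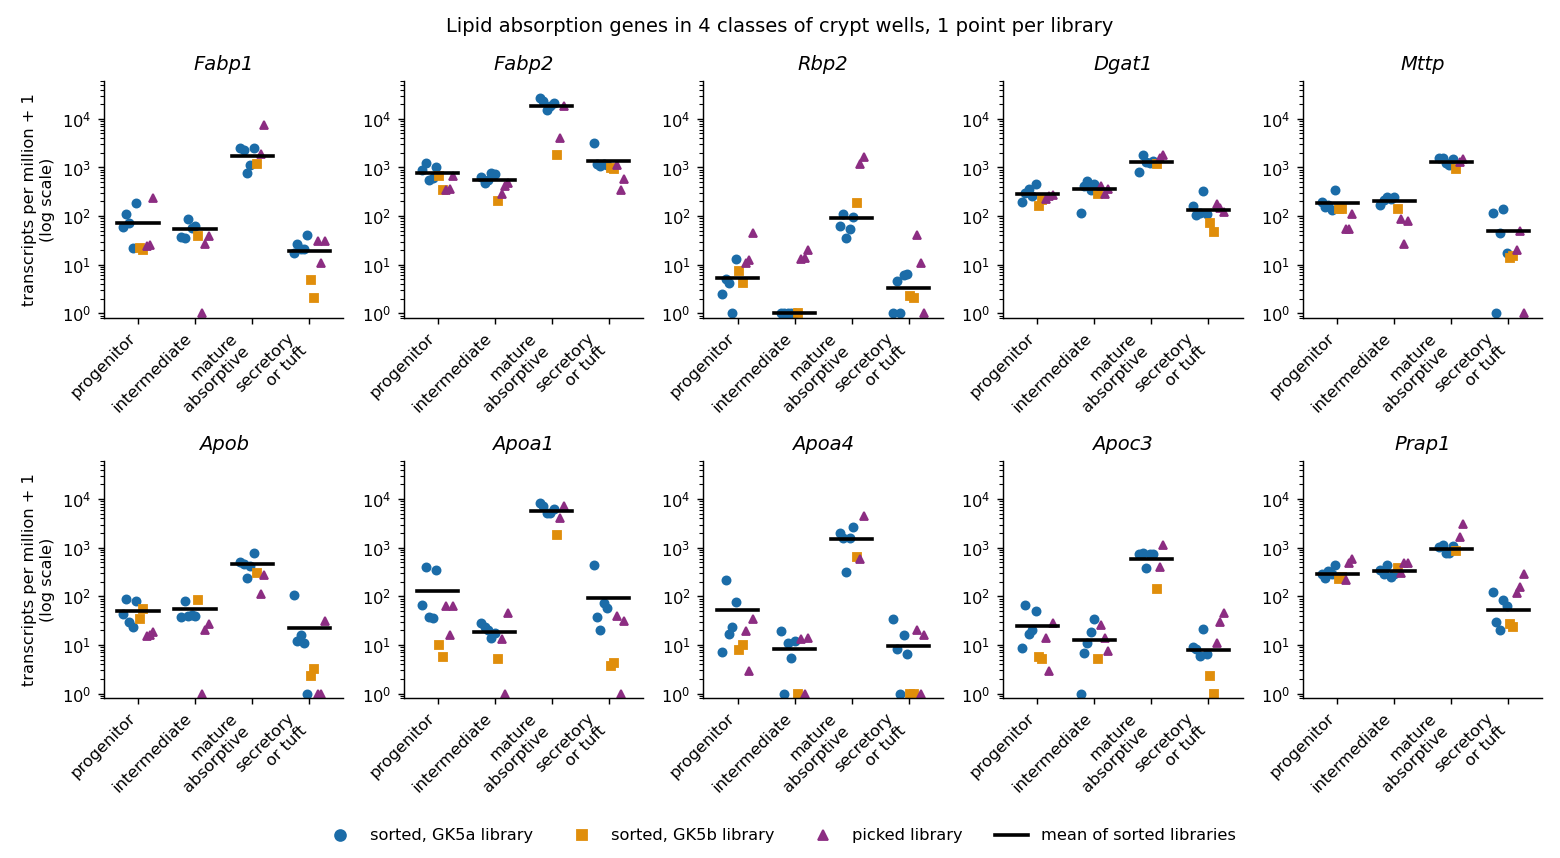
Level of each member (CPM, log axis) in the classes of wells, with 1 point per library. Mature absorptive wells sit above progenitor wells for every member, with the widest gap for Apoa1 and the narrowest for Prap1.

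Progenitor wells held transcripts of several members. To keep depth from setting the count, each well was thinned to 2000 transcripts, which left out 47 of the 935 sorted progenitor wells. Goblet wells, which are not absorptive, are the comparison for free RNA. Goblet wells over the brush-border threshold were left out, while the 32 progenitor wells over it were kept. The 2 sets of wells are thus not matched, which can lower the goblet shares relative to the progenitor ones. Median depths before thinning were 10996 transcripts in progenitor and 5337 in secretory wells. Fabp2 was seen in 56.1% ± 8.35 (SD) of thinned progenitor wells, Prap1 in 31.0% ± 5.38, Dgat1 in 29.3% ± 8.05 and Mttp in 18.9% ± 3.00. The unthinned shares were 85.8%, 62.2%, 64.9% and 50.3%. These 4 members were the ones above 10% of thinned progenitor wells.

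The goblet comparison separated the 4. Prap1 was seen in 5.58% ± 4.80 of thinned goblet wells, Dgat1 in 14.2% ± 4.15 and Mttp in 3.32%, all below their progenitor shares. Fabp2 was seen in 86.1% ± 7.03 of goblet wells, above its progenitor share. Its level also differed between goblet and Paneth wells, as given below. Goblet wells thus set no single background level for Fabp2, and its progenitor share cannot be judged by this measure. Apob was seen in 6.80% ± 2.21 of thinned progenitor wells and 0.479% of goblet wells. Apoa1 was at 3.96% ± 2.23 and 4.08% ± 5.65, and Rbp2 at 0.388% and 0.528%, so neither exceeded the goblet share. Fabp1 (5.33% against 2.62%), Apoa4 (2.03% against 0.963%) and Apoc3 (1.94% against 1.02%) were low in both.

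The progenitor level of each member as a percent of the mature level in the same library gave an order. Prap1 stood at 32.5% ± 8.20 (SD, n = 6), Dgat1 at 23.5% ± 6.31, Mttp at 14.3% ± 4.78 and Apob at 12% ± 5.38. Prap1 was above Dgat1 in 6 of 6 libraries and Dgat1 above Mttp in 6 of 6. Below Mttp the order was less firm: Mttp was above Apob in 4 of 6 libraries and Apob above Fabp2 in 5 of 6. Fabp2 (6.6% ± 6.34), Rbp2 (5.02% ± 5.05), Fabp1 (4.61% ± 3.30), Apoc3 (4.29% ± 2.79), Apoa4 (4.05% ± 4.93) and Apoa1 (2.22% ± 2.5) came after it. Their neighbours held the order in 3 or 4 of 6 libraries, so they are not ranked here. The Fabp2 value was 3.27% to 5.10% in the GK5a libraries and 19.4% in GK5b replicate 2, where its mature level, from 5 wells, was low.

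Picked libraries 2 and 3 also had Prap1 first, at 24.7%, and Dgat1 next, at 15.7%. Apoa1 (0.617%) and Apoa4 (0.519%) were last there. With 2 libraries, no spread is drawn from these.

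**Figure D2:**
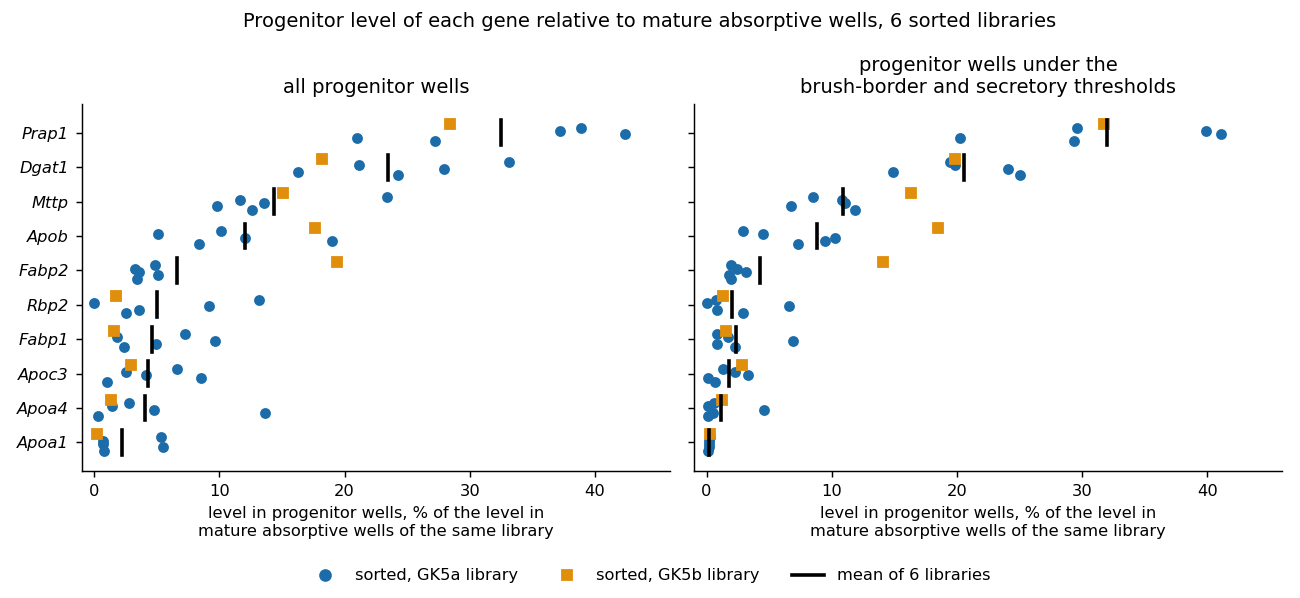
Progenitor level of each member as a percent of the mature level in the same sorted library (linear axis), over 6 libraries. The left panel holds all progenitor wells and the right panel those under the brush-border and secretory thresholds. In all progenitor wells, Prap1 and Dgat1 are highest, with means of 32.5% and 23.5%, and Apoa1 lowest, with 2.22%.

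For Apoa1, Apoa4, Apoc3, Rbp2 and Fabp1, few sorted progenitor wells carried most of the transcripts, while Apob was spread over more. In 32 of the 935 sorted progenitor wells, 3.42%, the brush-border share also passed the 0.5% threshold. Those 32 wells held 92.0% of the 1394 Apoa1 transcripts counted in progenitor wells, 84.4% of Apoa4, 70.9% of Apoc3, 68.6% of Rbp2 and 65.3% of Fabp1. They held 38.4% of Apob, 36.3% of Mttp, 29.9% of Fabp2, 24.9% of Dgat1 and 18.1% of Prap1. Only 2 wells were enough for 50% of Apoa1, of Apoa4 or of Apoc3, against 32 wells for Apob, 72 for Prap1 and 83 for Fabp2. In picked libraries, 8 of 288 progenitor wells passed that threshold, and they held 39.9% of Apoa1, 57.5% of Apoa4, 29.0% of Apoc3 and 8.92% of Prap1 transcripts.
Of the 935 progenitor wells, 296 passed a secretory or brush-border threshold. In the other 639, Apoa1 was at 10.5 ± 4.81 CPM (SD, n = 7) and ranged from 3.20 to 16.0 CPM. Prap1 was at 311 ± 55.0 CPM, Dgat1 at 254 ± 36.3 CPM and Mttp at 149.6 ± 40.4 CPM. As a percent of mature, Apoa1 was then 0.218% ± 0.0460 (n = 6) and Prap1 32.0% ± 7.68.

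Lgr5 and Mki67 split the progenitor wells further, into 188 wells with Lgr5 only (6 libraries), 201 with both and 542 with Mki67 only. Mttp averaged 125 ± 95 CPM with Lgr5 only, 109 ± 43.8 CPM with both and 229 ± 103 CPM with Mki67 only. Fabp1 averaged 23.7 ± 18.6, 15.6 ± 8.59 and 106 ± 92.5 CPM in the same order. Prap1, at 241 ± 127, 255 ± 64.2 and 327 ± 88.3 CPM, overlapped among all 3 subsets. These means were not tested against each other.

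The order of onset was read along the brush-border share, over sorted wells in 7 ranges from 0 to over 2%. The share is a measured score and not time. A member counted as on in the first range at 10% of its highest level. Dgat1 and Prap1 reached that in wells with a share up to 0.1%, and Mttp in wells up to 0.5%. Apob, Fabp1 and Rbp2 followed in wells up to 1%, and Apoa4 in wells up to 2%. Apoa1, Apoc3 and Fabp2 reached it only in wells over 2%, and those 84 wells are the range that sets the highest level. Libraries with too few wells in a range were left out of its mean. The range over 2% thus averages 5 libraries, all GK5a, the range up to 2% 6 libraries and the lower ranges 7. In wells that were not secretory, Mttp and Apob moved 1 range earlier and no other member moved.

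Prap1 stood at 8.48% of its highest level in wells with no brush-border transcript, then at 18.2%, 16.7%, 27.2%, 37.1% and 60.3% in the next 5 ranges. Fabp2 stood at 1.20%, 1.27%, 2.49%, 2.69%, 4.01% and 7.20% in the same 6 ranges. Prap1 values thus climbed over most of the score, while Fabp2 stayed low relative to its highest level until the last step, from 2483 to 34511 CPM. Fabp2 was not absent before that step. In wells with no brush-border transcript it was at 413 CPM, against 107 CPM for Prap1. The order depends on the height of each member's own highest level. Apoa1 had 232 CPM in wells up to 1%, 793 CPM in wells up to 2% and 10902 CPM above that. With the mark set at 50% of the highest level, Dgat1 came first, in wells up to 1%. Mttp, Fabp1, Rbp2 and Prap1 followed in wells up to 2%, and the 4 apolipoproteins and Fabp2 came last.

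**Figure D3:**
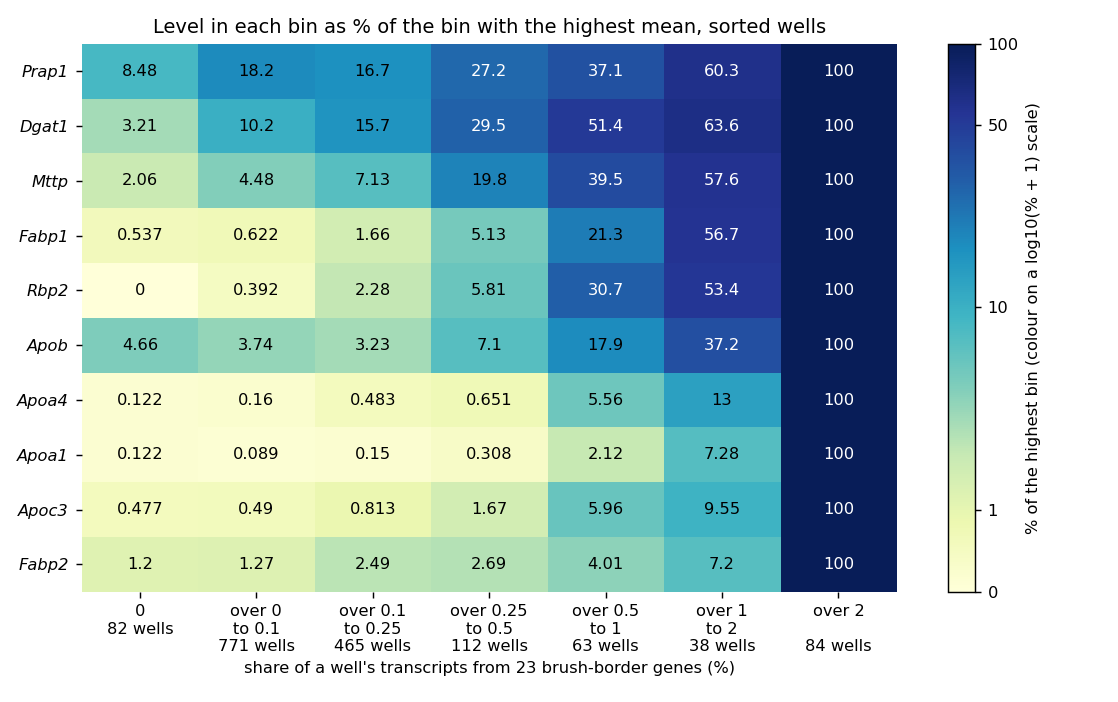
Level of each member as a percent of its highest level, against the brush-border share of the wells in 7 ranges. Dgat1, Prap1 and Mttp rise over the early ranges, and Fabp2, Apoa1 and Apoc3 stay under 10% until the range over 2%.

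The mature wells themselves could be parted at a brush-border share of 2%, a split added after the values were seen, with no test. In the 5 GK5a libraries, Fabp2 went from 1365 to 2622 CPM below the split to 32710.5 to 46204 CPM above it, which was 14.3 to 24.0 times higher within a library. Apoa1 went from 127 to 819 CPM to 9918 to 14557 CPM, or 17.6 to 78.3 times. Apoa4 differed by 5.73 to 25.5 times and Apoc3 by 8.75 to 18.1 times. All 5 GK5a libraries showed these members higher above the split. GK5b replicate 2 had 4 mature wells below the split, with Fabp2 at 1643 CPM and Apoa1 at 729 CPM, inside the GK5a ranges there. In picked replicates 2 and 3, Fabp2 went from 1854 and 2467 CPM to 6590.4 and 26026 CPM, and Apoa1 from 1589.5 and 1304 CPM to 7087 and 10333 CPM. Apoa4 was lower above the split in picked replicate 2 (728 and 406 CPM) and higher in picked replicate 3 (507 and 6622 CPM).
In GK5a, Dgat1 differed by 1.34 to 2.48 times, Mttp by 1.52 to 2.51 times and Prap1 by 1.88 to 3.39 times. Fabp1 was higher above the split in 4 of 5 libraries, at 0.746 to 5.30 times. Above the split, picked replicate 2 had less Dgat1 (1462 against 1655 CPM) and Prap1 (1543 against 1722 CPM), and picked replicate 3 more of both. Rbp2 in GK5a ranged from 0 to 51.1 CPM below and from 56.9 to 153 CPM above. Dgat1, Mttp and Prap1, all seen in progenitor wells, had the smallest median ratios in GK5a. Fabp2 was seen in a larger share of progenitor wells, yet its median ratio was 21.0.

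**Figure D4:**
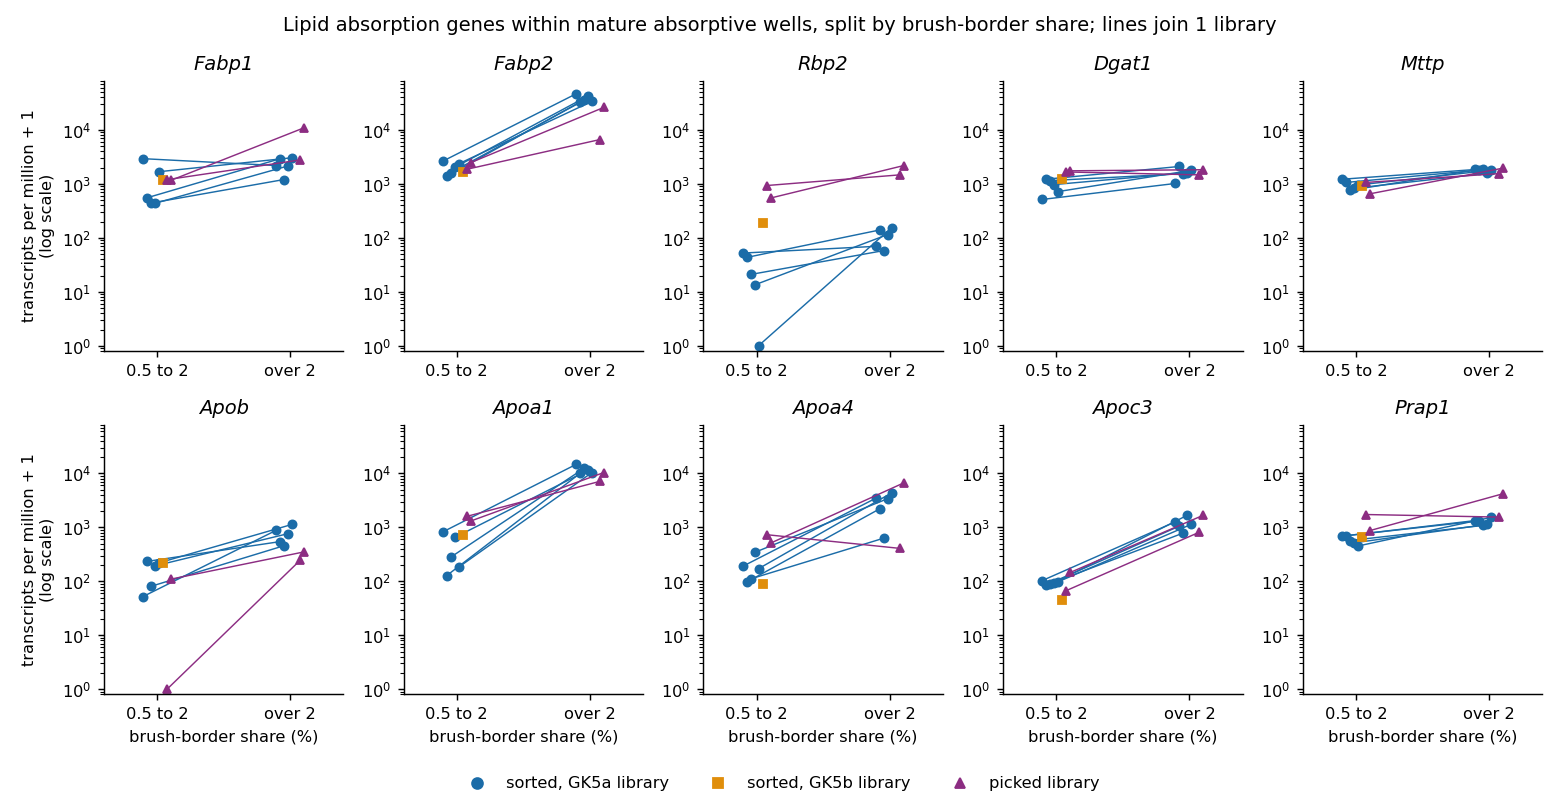
Member levels (CPM, log axis) in mature absorptive wells with a brush-border share of 0.5% to 2% and over 2%, by library. Fabp2 and Apoa1 step up in all 5 GK5a libraries, by 14.3 times or more.

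No member was called higher in intermediate than in progenitor wells by limma. The count of lower members was 2, where 2.87% of 10184 genes were called lower. Apoa1 was at 4.17 to 26.9 CPM in them, and the log2 difference from progenitor wells was -2.18 (SE 0.51, adjusted p = 0.014). Apoa4 ranged from 0 to 17.9 CPM, with a log2 difference of -2.63 (SE 0.73, adjusted p = 0.047). Neither call is firm. Without the progenitor wells that passed other thresholds Apoa1 gave 0.22 (adjusted p = 0.89), and both calls were lost without GK5a replicate 2, 4 or 5 (adjusted p from 0.051 to 0.34). Apoa4 was also lost without GK5b replicate 1 or 2 (0.086 and 0.14). Rbp2 had no transcript in the intermediate wells of any of the 6 sorted libraries, 1142580 transcripts in all, which allows up to 2.63 CPM over the group by counting error alone. Prap1 was at 36.1% ± 12.2 of its mature level there, Dgat1 at 27.0%, Mttp at 16.1% and Apob at 13.8%. Immune transcripts gave 0.284% ± 0.309 of intermediate and 0.0118% of progenitor transcripts, and 9 of 194 wells passed 0.5%. Without those 9 wells, a setting added after the values were seen, Apoa1 gave -2.20 (adjusted p = 0.013) and Apoa4 -2.60 (adjusted p = 0.048), and no other member was called.

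Secretory wells gave the level where absorptive genes should be low, and progenitor wells exceeded it for 7 of 10 members by limma, against 21.5% of all genes. Mttp was 2.77 higher on the log2 scale (adjusted p = 0.00053), Prap1 2.53 (adjusted p = 6.2e-08), Apob 2.39 (adjusted p = 0.0027) and Dgat1 1.01 (adjusted p = 0.0035). Apoa4, Fabp1 and Apoc3 were the other 3. Of these 7, Apoa4, Fabp1 and Apoc3 lost their call without the progenitor wells that passed other thresholds, with adjusted p of 0.52, 0.12 and 0.82 by limma. Apoc3 was also lost without GK5a replicate 2, 3 or 5 or either GK5b library (adjusted p from 0.058 to 0.15), and Apoa4 without GK5a replicate 5 (0.063). In the GK5a libraries alone, Apob (adjusted p = 0.058), Apoa4 (0.095) and Apoc3 (0.11) did not pass. With mean CPM per well, Apoc3 (0.071) and Fabp1 (0.30) were lost, and with no low-count filter Apoc3 (0.065). In wells of at least 2000 transcripts, Apoa4 (0.057) and Apoc3 (0.065) were lost.
Fabp2 was the 1 member lower in progenitor wells, where 9.71% of all genes were called lower, by 1.04 on the log2 scale (adjusted p = 0.0072). It ranged from 944 to 3149 CPM in secretory wells, with a median of 1124, and made up 80.6% ± 9.43 of the members' transcripts there. Without wells over the brush-border threshold, goblet wells gave 1426 ± 397 CPM (SD, n = 7; 272 wells) and Paneth wells 208 ± 44.8 CPM (n = 4; 27 wells). Fabp2 thus differed between secretory types. Prap1 averaged 26.1 CPM in goblet wells and Mttp 21.2 CPM. Apoa1 and Rbp2 did not pass, with log2 differences of 0.53 (adjusted p = 0.45) and 0.52 (adjusted p = 0.51). Apoa1 turned with the wells used: it gave -1.79 (adjusted p = 0.00076) without the progenitor wells that passed other thresholds. Leaving out instead the secretory wells over the brush-border threshold, a setting added after the values were seen, it gave 1.13 (adjusted p = 0.019).

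Other genes of the pathway, from lists set by name, were counted in the same comparison. The lists were chosen with earlier results of these data known, so the counts are a description and no independent support. Among all genes, 16.0% were higher and 36.1% lower, and the median was -0.54. Of 9 tested lipid uptake genes, 8 were higher in mature wells and none lower, with a list median of 3.25. Fabp6, the ileal bile acid binding protein, was at 5.33 on the log2 scale. The fatty acid transporter Slc27a4 was at 3.92, the scavenger receptor Cd36 at 3.78 and the cholesterol carrier Npc1l1 at 3.68. Of 14 tested re-esterification genes, 9 were higher and 3 lower, with a median of 1.84. Agpat9 (3.49) and the monoacylglycerol acyltransferase Mogat2 (3.30) led, followed by Dgat2 (2.99) and Soat2 (2.93), which makes cholesterol esters.

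Of 11 tested lipoprotein assembly genes, 7 were higher and 2 lower, with a median of 1.23. Apoc2, the activator of lipoprotein lipase, rose by 4.40 on the log2 scale, and Tm6sf2 by 2.67. Apoe fell by 2.82, so the apolipoproteins did not all move one way. Sar1b, the coat GTPase of chylomicron export, rose by 1.72. Of 7 tested retinoid genes, 4 were higher and none lower: Rdh7 (3.77), Bco2 (3.42), Retsat (1.28) and Dhrs3 (0.93), with a list median of 0.93. Of 16 transcription regulators, 7 were higher and 1 lower. Creb3l3 (4.52), Maf (4.24), Ppargc1a (2.81) and Hnf4g (2.13) were the 4 with the largest calls, while Hnf4a did not pass at -0.14 (adjusted p = 0.33).

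Across the 26 sums of class and library, some other genes closely followed a member, described here by Pearson's r without a test, since the sums share libraries. Apoc3 was closest to Creb3l3 (0.98), Glrx (0.95) and Mme (0.94). Fabp2 was closest to Pls1 (0.98), Calml4 (0.96) and Crip1 (0.96). Apoa1 was closest to Slc27a4, Bst1 and Unc93a, each at 0.95. Mttp was closest to Mylk (0.96), Apob to Abcc2 (0.95), Fabp1 to Casp6 (0.96) and Dgat1 to Itfg3 (0.97). Apoa4 was closest to Hsd17b6 (0.94), and Prap1 was close to Tspan3 (0.94) and Mogat2 (0.94), while Rbp2 was least close to any gene, with Cyp3a13 at 0.91. Within the set, r was highest for Apoa1 with Apoa4, at 0.94, and lowest for Fabp2 with Prap1, at 0.48.

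The libraries differed in the members. GK5b libraries were lower than GK5a for 9 of 10 members over all wells by limma, where 6.53% of 10469 genes were called lower. Apoa1 stood at 1186, 1306, 449, 815 and 841 CPM in GK5a replicates 1 to 5 and at 9.11 and 43.0 CPM in GK5b. The groups did not overlap, and the log2 difference was -5.30 (SE 0.47, adjusted p = 5.6e-05). Fabp2 stood at 4482, 4451, 1783, 3471 and 2867 CPM in GK5a and at 715 and 497 CPM in GK5b, without overlap. Its log2 difference was -2.38. The differences were -3.94 for Apoc3, -3.92 for Apoa4, -2.94 for Fabp1, -1.25 for Mttp, -1.18 for Apob, -1.16 for Dgat1 and -0.76 for Prap1. Apob was the least firm (adjusted p = 0.048) and was lost without any 1 of GK5a replicates 1, 2, 4 and 5 or either GK5b library (adjusted p from 0.066 to 0.46). Without GK5b replicate 1, Apoa4, Dgat1 and Prap1 were lost too, at -3.22, -0.99 and -0.72 (adjusted p = 0.092, 0.15 and 0.083). With 1 GK5b library left, the spread comes from GK5a alone and that library is assumed to vary alike. Rbp2 did not pass, at -0.59 (adjusted p = 0.43).

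The makeup of the wells differed between these plates: 134 of 1090 GK5a wells were mature absorptive and 7 of 525 GK5b wells. Progenitor wells numbered 592 and 343. Depth differed too, with medians of 3361 to 7871 transcripts per well in GK5a libraries and 16427 and 13944 in GK5b. A progenitor call needs only 1 Lgr5 or Mki67 transcript, so the class counts depend on depth. Goblet transcripts gave 1.44% in GK5a and 5.28% in GK5b, and brush-border transcripts 0.479% and 0.144%. Their part in the result was not tested. Within progenitor wells, only Apoa1 was called lower in GK5b, where 1.06% of 9911 genes were. Its log2 difference was -3.70 (SE 0.85, adjusted p = 0.038), and it lost the call without GK5a replicate 5 (0.051), GK5b replicate 1 (0.35) or GK5b replicate 2 (0.13). Without the progenitor wells that passed other thresholds it was -1.44 (adjusted p = 0.077). Apoc3 gave -2.12 (adjusted p = 0.090).

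Picked libraries shared the sorted libraries with the comparison above. Rbp2 was higher in picked libraries, and Prap1 with it, where 12.3% of 10633 genes were called higher. Rbp2 stood at 55.3, 49.9 and 149 CPM in picked replicates 1 to 3, while the 7 sorted libraries ranged from 5.15 to 19.3 CPM. The groups did not overlap, and the log2 difference was 3.10 (SE 0.41, adjusted p = 0.00021 by limma). Prap1 stood at 259, 487 and 738 CPM against 197 to 452 CPM, which overlapped, and its log2 difference was 0.79 (SE 0.27, adjusted p = 0.040). Apob was lower, where 19.1% of genes were, at 13.8, 17.0 and 37.0 CPM against 30.9 to 133 CPM, so that the highest picked library overlapped the lowest sorted one. Its log2 difference was -1.53 (SE 0.43, adjusted p = 0.018). Apob was lost without picked replicate 1 or 2 (adjusted p = 0.074 and 0.077). Prap1 was lost without picked replicate 2 or 3, GK5a replicate 2, 3 or 4, or GK5b replicate 2 (adjusted p from 0.051 to 0.21). Mttp did not pass at -0.85 (adjusted p = 0.092).

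Paneth transcripts gave 5.90% ± 5.60 of the picked libraries, against 1.06% in GK5a and 0.623% in GK5b, and their part was not tested. Picked and sorted libraries also differed in Xist, an RNA of the inactive X chromosome, at 132 ± 20.3 CPM against 0.269 CPM. Ddx3y, a Y-linked gene, was at 0 in the picked libraries and at 77.2 ± 16.2 CPM in the sorted ones. How the cells were taken, the animals and the experiment therefore cannot be told apart in this comparison.

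Within progenitor wells, Rbp2 and Prap1 were higher in picked libraries, where 11.2% of 10070 genes were, and Apob and Mttp lower, where 16.9% were. Rbp2 was at 10.0, 11.3 and 43.1 CPM, with a log2 difference of 2.38 (SE 0.67, adjusted p = 0.018). Prap1 was at 216, 491 and 599 CPM, with 0.79 (adjusted p = 0.022). Mttp was at 54.2, 52.6 and 111 CPM, below all 7 sorted libraries (132 to 342 CPM), with -1.02 (adjusted p = 0.016). Apob was at 14.1, 15.0 and 17.5 CPM, below the sorted range of 21.9 to 86.1 CPM, with -1.17 (adjusted p = 0.027). Each of the 4 calls rests on picked libraries. Without replicate 3, Rbp2 (adjusted p = 0.10), Prap1 (0.12) and Apob (0.060) were lost. Without replicate 2, Prap1 (0.087), Mttp (0.091) and Apob (0.087) were lost, and without replicate 1, Apob (0.059) and Mttp (0.054).

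In mature wells, a comparison added after the values were seen, Rbp2 was the 1 member called, where 2.95% of 3699 genes were called higher. It stood at 1167 and 1624 CPM in picked replicates 2 and 3, above the sorted range of 35.1 to 184 CPM. The log2 difference was 3.91 (SE 0.56, adjusted p = 0.0034). After thinning, 76.9% ± 4.05 of picked mature wells and 12.1% of sorted mature wells held an Rbp2 transcript. Rbp2 was above every sorted library in wells on both sides of the 2% split. Prap1 gave 1.04 (adjusted p = 0.068) and Apob -1.50 (adjusted p = 0.071). The gap between mature and progenitor wells did not pass a test of its difference between picked and sorted libraries for any of the 10 members, where 7.31% of 10132 genes did. That test, also added after the values were seen, gave 1.04 for Rbp2 (adjusted p = 0.49).

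**Figure D5:**
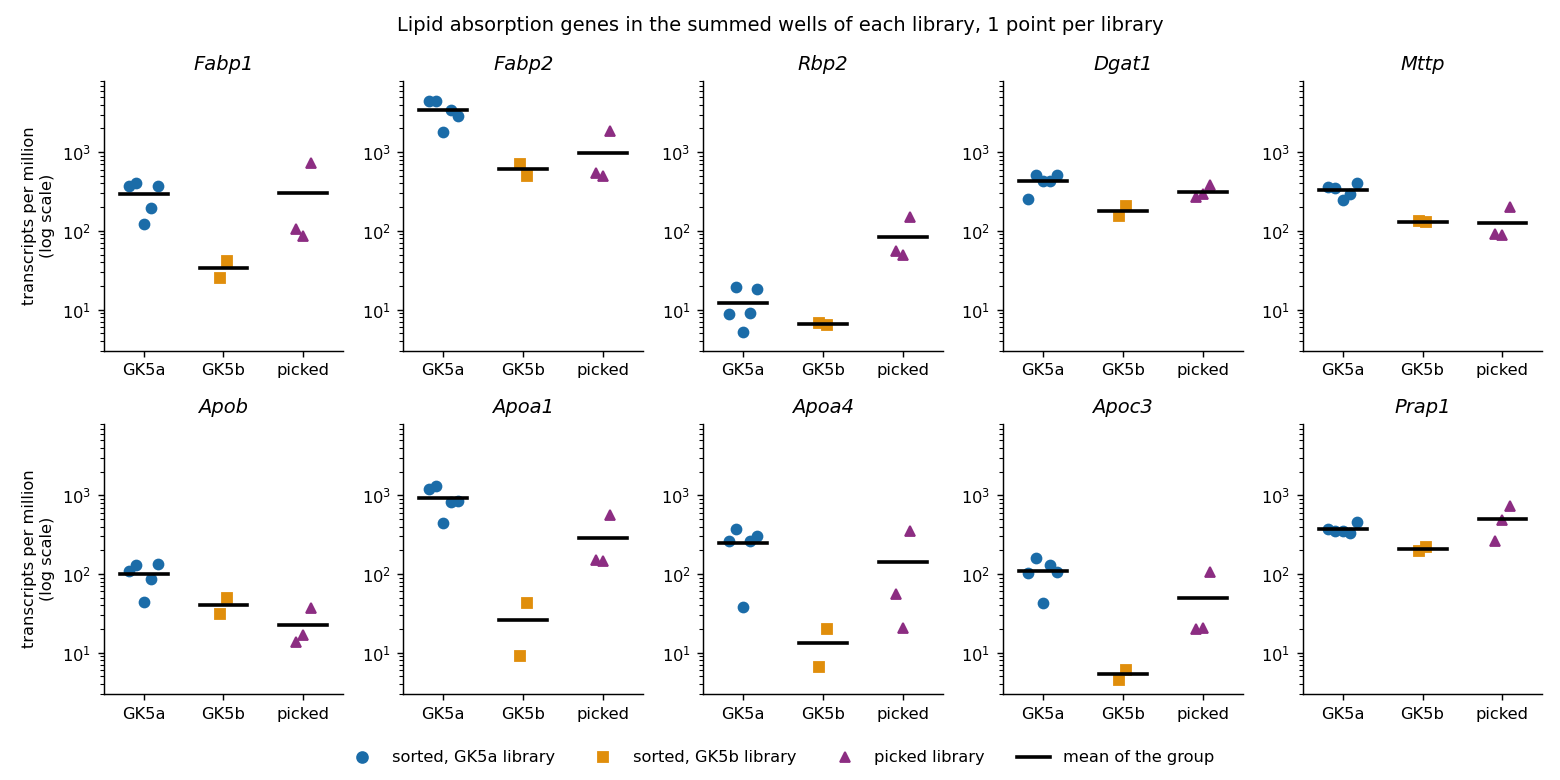
Level of each member over all wells of a library (CPM, log axis), by group of libraries. Rbp2 is higher in all 3 picked libraries than in the 7 sorted ones, and Apoa1 is lowest in GK5b.

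Reads of overlapping genes can be mixed where the counting did not use strand, and the strand setting is not given in the sources used here. Fabp2 overlaps an antisense gene, 4933405D12Rik, with 23 transcripts against 40444. Mttp overlaps Trmt10a, with 229 against 4828, and Prap1 overlaps Fuom, with 755 against 7082.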

How the data were processed

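Alignment was to mm10 with BWA 0.6.2-r126, per the submitters' processing notes. Which software counted molecules, and with what strand setting, is not given in the sources used here. Values are estimates: the authors deposited, per gene and well, an estimated count of transcripts from molecular barcodes, corrected for molecules that share a barcode. All values map back to whole barcode counts (within 0.001), but they are not read counts, and no count model was fitted. Each group comes from the sample titles, per the labels.

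Wells with at least 1000 endogenous transcripts were summed per library and class. The sums were scaled by trimmed means to CPM, filtered to genes with at least 10 transcripts in at least 3 sums, then log2(CPM + 1) values entered limma 3.58.1 in R 4.3.3 (trend on, library as block between classes, Benjamini-Hochberg adjustment over all genes tested). Fold changes on this scale understate those of low genes. CPM levels and percents given beside them were not scaled by trimmed means. Classes, thinning and descriptions used Python 3.11.15 with pandas 2.3.3, numpy 2.4.6 and scipy 1.17.1. The scripts were tested on simulated data. Members and lists were chosen with earlier results of these data known. The members are always named, with up to 4 called genes per list by absolute change in mature against progenitor wells and genes among the 3 closest to each member; 1 of these is not reported here. Depth per library and the number of wells limit precision, and limits from a count of 0 use 3 counts. Alternatives covered scaling, pseudocount, low-value filters, thresholds of the classes and leaving out each library.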

Additional observations from a re-analysis of the deposited data

Results flagged for a closer look

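GK5a values were taken in 49 sets, each a member in a class of wells or in all wells together. In each set, the highest or lowest library was set against the spread of the others. In 7 it stood apart, where chance gives about 1 in 20 for independent sets of normally distributed values. These sets share libraries and their distribution was not checked, so the count is not read against that rate. In intermediate wells, Apob was at 79.99 CPM in replicate 2, with the others between 35.9 and 39.5 CPM. In mature wells, Apoc3 was at 375 CPM in replicate 3, with the others between 734 and 778 CPM. In secretory wells, replicate 1 stood apart for Apoa1 (447 CPM, the others 19.7 to 71.1), Apob (107 CPM, the others 0 to 14.8) and Fabp2 (3149 CPM, the others 1078 to 1195). Replicate 4 stood apart for Apoc3 (20.3 CPM, the others 4.92 to 8.24) and Dgat1 (321 CPM, the others 106 to 157).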

How the results depend on the processing

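No paired analysis was possible because of the groups of libraries only GK5a has replicate numbers in its titles, and the other numbers are names given in order. Contrasts between classes of wells had the library as a block throughout. The 10 members stayed higher and called in mature against progenitor wells under each of 16 alternatives, 160 values in all. Of 1355 member values under alternatives, 1267 kept their side of the threshold, 69 lost the call, 17 gained it and 2 reversed, and 106 uncalled values changed sign. Both reversed values are of Apoa1 without the progenitor wells that passed other thresholds: 0.22 (adjusted p = 0.89) against intermediate wells and -1.79 (adjusted p = 0.00076) against secretory wells. Counts of genes called moved as follows. Intermediate against progenitor wells (297 genes): 561 with a 0.25% brush-border threshold, 167 in GK5a alone, 161 without those progenitor wells, and 163 to 249 leaving out a library. GK5b against GK5a libraries (1348): 275 to 1590 leaving out a library. GK5b against GK5a in progenitor wells (358): 15 with no filter, 107 without those wells, and 2 to 518 leaving out a library. Picked against sorted in mature wells (747): 1138 with no filter and 285 to 1557 leaving out a library. Picked against sorted, mature minus progenitor (741): 347 with library totals, 265 with mean CPM per well, and 276 to 2740 leaving out a library. With library totals, higher calls made up 79.9% in place of 68.9% for progenitor against secretory wells, went from 70.7% to 56.8% for GK5b in progenitor wells, from 39.1% to 19.1% for picked libraries and from 39.8% to 16.4% for picked progenitor wells. Prap1 in picked progenitor wells was then 0.48 (adjusted p = 0.17). The mark at 50% leaves 0 members on below 0.5% brush border, against 3, and without thinning 7 members passed 10% of progenitor wells, against 4. Scaling by totals moved the median of all genes from -0.54 to -0.71 in mature against progenitor wells and from -0.15 to -0.40 in picked against sorted libraries. Counts with a library left out rest on fewer libraries; otherwise the cause was not tested. The depth per well limits the low members most.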
